A study of Homo sapiens with 24 samples.

Results

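In VAL cells, 6144 regions away from promoters lost accessibility after 8 h of CDK9 inhibition (CDK9i) and were called in no other comparison of the experiment. These VAL-only late closed distal regions were selected on the calls themselves: they are the regions of the VAL 8 h decreased list that were absent, by identical coordinates, from both VAL 3 h lists and from all lists of OCI-LY3, and that lay more than 1000 bp from every transcription start site (TSS) of the basic gene annotation. They were 6144 of the 26369 distinct regions in the 8 lists of the series, and 3621 of them (58.9%) had their midpoint in an annotated transcript (gene-body regions) while 2523 (41.1%) did not (intergenic regions). The VAL 8 h decreased list itself held 9260 regions, 35.1% of all distinct regions. Of these 9260, 1172 were also called at 3 h in VAL, 971 of the rest were called in OCI-LY3, and 973 of the remaining 7117 lay within 1 kb of a TSS. The calls that chose the regions are given here as a description and were not tested.

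VAL and OCI-LY3 are human diffuse large B-cell lymphoma (DLBCL) cell lines. Both were exposed to 30 nM AZD4573, a selective CDK9 inhibitor, and were profiled by ATAC-seq, which marks DNA that a transposase can reach, at 0 h, 3 h and 8 h. The lists name DMSO, the solvent, as the control of every comparison, and the labels give the untreated time as 0 h. The 24 libraries comprised 4 for each line and time, 2 prepared by standard ATAC-seq from 50000 cells and 2 by Fast-ATAC, and the labels do not say whether they came from separate cultures. For Fast-ATAC the method label gives 5000 cells and the protocol text 50000. Both VAL comparisons used the same 0 h libraries. The deposited lists give only the coordinates of regions the authors called, so the depth of the libraries and the size of each change, beyond the authors' fold threshold, are unknown, every share below is a share of regions, and its error covers counting over regions only.

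CDK9 is the kinase of P-TEFb, which releases paused RNA polymerase II into elongation. Accessible sites far from promoters are mostly enhancers, bound by lineage transcription factors, and insulators, bound by CTCF. In B cells, PU.1 and SpiB (ETS factors), IRF4 and IRF8, OCT2 with its coactivator encoded by POU2AF1, RUNX factors and EBF1 occupy such sites. PU.1 and SpiB pair with IRF4 or IRF8 on a composite ETS-IRF element. The sequence of the late closed regions was compared with that of 3 other distal groups: 3728 VAL-only late opened regions, 739 VAL-only regions closed at both 3 and 8 h (early closed), and 1575 regions closed at 8 h only in OCI-LY3.

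The 4 windows below, picked by rule, show what the motif results rest on: each is the central 200 bp of a region, labelled by the gene that holds it or by the nearest protein-coding TSS, holding most matches to the motifs past the threshold in 2 of the 4 comparisons below, the highest number any motif reached, outside exons. All are from the plus strand of GRCh37 (hg19), and capitals mark matches on either strand to IRF (AAANNGAAA), ETS-IRF (GAANNGAAA), FOX (TGTTTAC) or CTCF (a 12-base consensus with 1 mismatch allowed). The ETS-IRF pattern leaves out the first G of the ETS core GGAA, so that a match need not hold the whole composite element, which is the same pattern preceded by G. Of the 4 windows that of ARID5B held the whole element. The IRF and ETS-IRF patterns differ only in their first base, and capitals run together where matches overlap.
ARID5B chr10:63842914-63843113: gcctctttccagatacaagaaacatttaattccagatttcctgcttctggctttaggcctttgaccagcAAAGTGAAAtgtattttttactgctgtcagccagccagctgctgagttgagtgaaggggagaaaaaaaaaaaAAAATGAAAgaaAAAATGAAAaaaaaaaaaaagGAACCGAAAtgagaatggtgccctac
ELL2 chr5:95511165-95511364: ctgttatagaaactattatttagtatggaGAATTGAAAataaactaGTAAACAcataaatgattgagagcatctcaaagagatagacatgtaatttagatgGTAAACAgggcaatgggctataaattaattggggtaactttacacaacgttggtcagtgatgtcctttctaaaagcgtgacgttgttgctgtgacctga
PTPRD chr9:9387707-9387906: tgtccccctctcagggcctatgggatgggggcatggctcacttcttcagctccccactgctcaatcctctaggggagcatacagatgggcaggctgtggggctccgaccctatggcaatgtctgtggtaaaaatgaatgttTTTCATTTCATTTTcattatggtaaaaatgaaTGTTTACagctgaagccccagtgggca
HDAC9 chr7:18395789-18395988: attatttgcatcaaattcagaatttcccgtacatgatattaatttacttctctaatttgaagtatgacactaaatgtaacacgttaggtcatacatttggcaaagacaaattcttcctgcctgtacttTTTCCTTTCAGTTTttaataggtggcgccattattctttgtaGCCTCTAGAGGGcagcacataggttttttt
The ARID5B window, in intron 8, held 4 matches, 2 of them inside a long run of adenines. The ELL2 window, with 2 FOX matches, lay outside that gene, 213 kb from its TSS, in a transcript of a non-coding gene with a TSS 3.03 kb away. The PTPRD window was in intron 9. The HDAC9 window, in intron 2, carried a CTCF match beside overlapping IRF and ETS-IRF matches.

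Another 4 windows were chosen after the values were seen, because PU.1/SpiB (GAGGAAGT) and the octamer (OCT, ATGCAAAT) were concentrated at the centre of the regions. They are the matches nearest the midpoint at genes of the B-cell lists, with only that motif in capitals.
ITPR2 chr12:26624569-26624768: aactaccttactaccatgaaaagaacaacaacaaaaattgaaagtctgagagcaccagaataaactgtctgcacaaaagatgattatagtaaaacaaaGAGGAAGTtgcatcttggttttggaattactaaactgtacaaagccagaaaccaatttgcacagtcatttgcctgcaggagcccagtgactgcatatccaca
VAV3 chr1:108442818-108443017: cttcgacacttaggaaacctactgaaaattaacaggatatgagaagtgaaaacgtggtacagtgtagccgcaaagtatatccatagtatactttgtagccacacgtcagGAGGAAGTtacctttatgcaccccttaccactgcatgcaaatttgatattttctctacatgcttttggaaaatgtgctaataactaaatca
MEF2C chr5:88025393-88025592: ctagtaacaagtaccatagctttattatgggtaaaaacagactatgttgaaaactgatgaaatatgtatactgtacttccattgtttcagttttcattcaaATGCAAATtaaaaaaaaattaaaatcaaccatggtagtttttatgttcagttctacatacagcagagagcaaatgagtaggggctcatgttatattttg
ZEB2 chr2:145268251-145268450: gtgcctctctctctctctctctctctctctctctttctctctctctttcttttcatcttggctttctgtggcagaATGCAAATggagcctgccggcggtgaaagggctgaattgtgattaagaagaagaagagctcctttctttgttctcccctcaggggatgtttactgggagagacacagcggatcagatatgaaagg
In ITPR2, an inositol trisphosphate receptor that releases calcium, the PU.1/SpiB match lay 2 bp from the midpoint, in intron 45. In VAV3, a guanine nucleotide exchange factor downstream of the B-cell receptor, it lay 13 bp away in intron 1, in a region of only 457 bp whose window also held an octamer and an ETS-IRF match. The octamers of MEF2C and ZEB2, transcription factor genes of B cells and of several other lineages, lay 5 and 21 bp from the midpoints.

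The regions were lower in GC than the distal regions of the series as a whole. Their median GC content was 40.2% (10th to 90th percentile 34.2 to 47.9%), against 43.8% in all distal called regions and close to that of the chromosomes with most of them, 40.2, 39.7 and 38.2% for chromosomes 2, 3 and 4. Their median width was 1319 bp (714 to 1877 bp), against 1204 bp in all distal and 1309 bp in all called regions. Their median distance to the nearest TSS was 21390 bp, against 15487 bp in all distal called regions. CpG dinucleotides numbered 0.722 per 100 bp at the median, and 33 regions held none. Gene-body and intergenic regions had nearly the same widths, with medians of 1328 and 1309 bp, and 96.7% of each group were wider than 500 bp (odds ratio 0.974, 95% interval 0.733 to 1.29, adjusted p = 0.992 by two-sided Fisher's exact test with Benjamini-Hochberg adjustment over all 83 tests, the test used throughout). GC content was below 40% in 50.8% of gene-body and 45.9% of intergenic regions (odds ratio 1.21, adjusted p = 0.000748, with 16 of 21 autosomes showing it), although the medians were 39.9 and 40.5%. More intergenic regions lay over 100 kb from a TSS, 10.8% against 6.46% in gene bodies. The distance rule set the lower end: the closest regions kept were 1003 bp from a TSS, as at HAPLN1, and the closest left out was 992 bp away, with 96 kept between 1000 and 1500 bp and 98 left out between 500 and 1000 bp.

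Against the other distal groups, GC content separated the regions from those opened at the same time. GC was below 40% in 48.8% of the late closed and 7.43% of the late opened regions, whose median was 53.3% (odds ratio 11.8, 95% interval 10.4 to 13.5, on 21 of 22 autosomes, with p too small to be represented). The share was 53.7% in early closed regions (odds ratio 0.821, adjusted p = 0.0295) and 37.7% in OCI-LY3-only late closed regions (odds ratio 1.57, adjusted p = 2.36e-14, 18 of 22 autosomes). The early closed difference lost the threshold when 1 region was kept for each locus (odds ratio 0.836, adjusted p = 0.0697). Regions wider than 500 bp made up 96.7% of the late closed, 85.2% of the late opened (adjusted p = 2.35e-91), 99.3% of the early closed (adjusted p = 2.96e-05) and 95.2% of the OCI-LY3-only group (adjusted p = 0.0155). Since this limit left out few regions, 1000 bp was added after the data were seen: 76.6% of the late closed regions were wider, against 43.7, 81.6 and 58.5% in the same order, with odds ratios of 4.23, 0.742 and 2.33, all past the threshold.

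**Figure D1:**
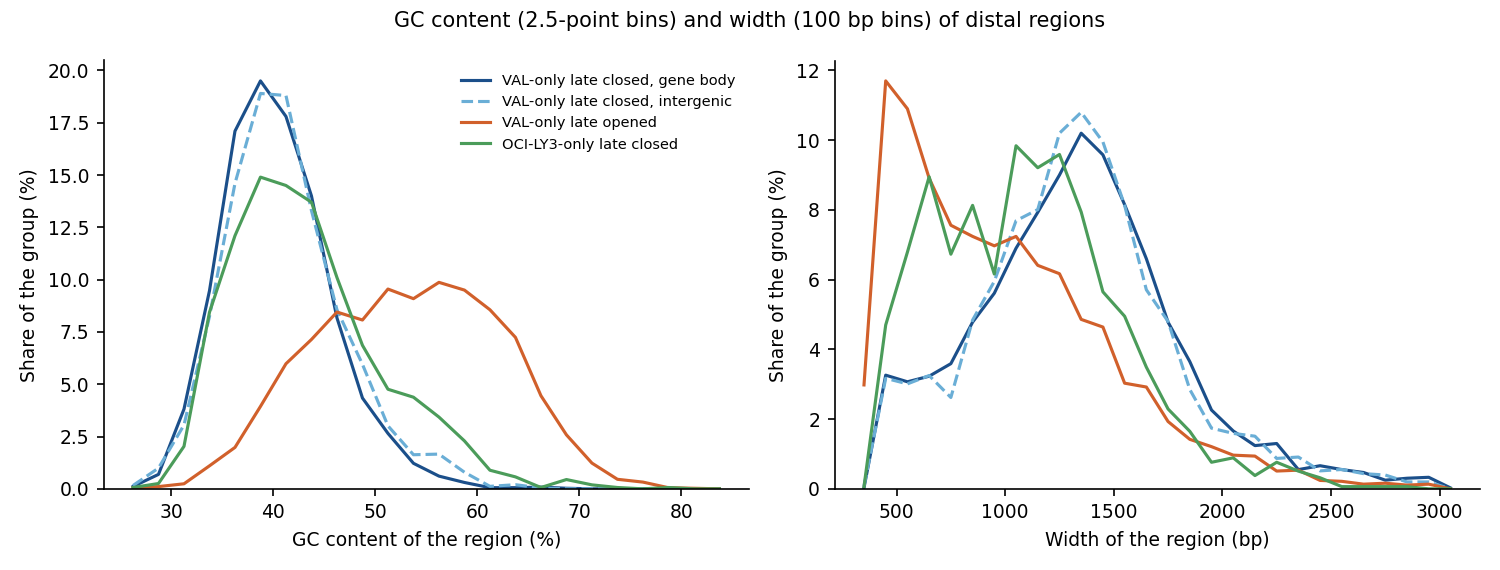
Share of each group of distal regions (%) by GC content in bins of 2.5 points (left) and by width in bins of 100 bp (right), for VAL-only late closed regions in gene bodies and between genes, VAL-only late opened and OCI-LY3-only late closed regions. The gene-body and intergenic curves lie close together, while the opened group peaks at higher GC content (median 53.3%) and smaller width (median 910 bp).

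The regions were spread unevenly over the chromosomes, in gene bodies and between genes alike. Chromosome 2 held 741 (12.1%), chromosome 4 held 664 and chromosome 3 held 578. Per 10 Mb, chromosome 4, the autosome lowest in GC (38.2%), carried 20.1 gene-body and 14.6 intergenic regions. The GC-rich chromosomes 19 (48.4%) and 22 (48.0%) held 4 and 1 in all, and chromosome 17 held 8. The late opened regions ran the other way, with 55.5 per 10 Mb on chromosome 19 and 4.08 on chromosome 4. Across the 22 autosomes Pearson's r between GC content and late closed regions per 10 Mb was -0.813 (Spearman's rho -0.872). The other closed groups fell with GC content as well, with r of -0.791 for early closed and -0.857 for OCI-LY3-only late closed regions, and r was 0.968 for the opened regions. These are descriptions over chromosomes that share libraries and calls, and gene density moves with GC content too (r with late closed regions -0.551). Neither axis was tested as a cause. Chromosome 13, nearly as AT-rich as chromosome 4 but with fewer genes per Mb, held 10.5 gene-body and 10.9 intergenic regions per 10 Mb.

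**Figure D2:**
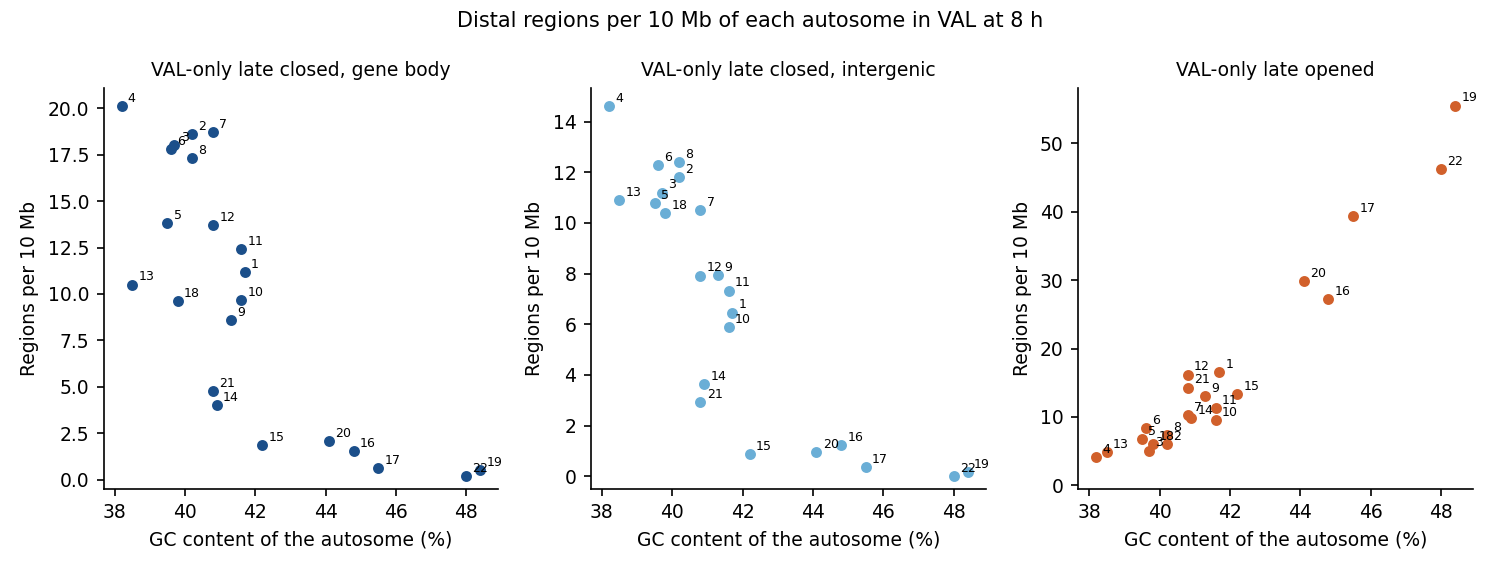
Distal regions per 10 Mb of each autosome against its GC content (%), for VAL-only late closed regions in gene bodies (left) and between genes (middle) and for VAL-only late opened regions (right); each point is 1 autosome, labelled by its number. Both closed panels fall with GC content, from 20.1 and 14.6 on chromosome 4, and the opened panel rises to 55.5 on chromosome 19.

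Gene bodies and intergenic space held the regions at equal density. Outside 1 kb of any TSS, gene bodies spanned 1589 Mb and intergenic space 1111 Mb, and the late closed regions numbered 2.28 and 2.27 per Mb. The late opened regions had 1.53 and 1.17 per Mb, and the OCI-LY3-only late closed regions 0.544 and 0.634. The gene-body share, 58.9%, was lower than the 65.2% of the late opened regions (odds ratio 0.766, adjusted p = 3.50e-09, on 14 of 22 autosomes). It was higher than the 55.2% of the OCI-LY3-only group (odds ratio 1.17, 95% interval 1.04 to 1.30, adjusted p = 0.0204, 14 of 22 autosomes). Against the 60.5% of the early closed regions no difference passed (odds ratio 0.938, interval 0.803 to 1.10, adjusted p = 0.658).

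Of the gene-body regions, 2636 had their midpoint in a transcript of a protein-coding gene and 985 only in non-coding genes. In the longest such transcript, 2553 midpoints were intronic, 626 of them in the first intron, and 83 (3.15%) were exonic. Midpoints were spread evenly from start to end, with 18.5% in the opening 20% of the transcript and 21% in the closing 20%. The late opened regions were exonic at 12.6% of midpoints and leaned to the far end, with 12.9% and 25% in those same stretches. Proximity to a transcript's 3' end followed the same order. Late closed regions within 1 kb of a transcript end made up 4.67%, against 11.3% of late opened regions (odds ratio 0.385, adjusted p = 1.67e-32, 17 of 22 autosomes) and 6.90% of early closed regions (odds ratio 0.656, adjusted p = 0.0295, on 11 of 20 autosomes, and past the threshold in only part of the alternatives). In the OCI-LY3-only group it was 4.57% (odds ratio 1.02, interval 0.782 to 1.33, adjusted p = 0.994). Among the regions themselves it was 5.72% in gene bodies and 3.17% between genes (odds ratio 1.84, adjusted p = 1.22e-05, 17 of 21 autosomes), a difference that vanished when only protein-coding transcripts counted as gene bodies (odds ratio 1.01).

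ETS-IRF, octamer, PU.1/SpiB and ETS motifs were more frequent in the late closed than in the late opened regions, and EBF1, NF-kB, E-box and GC box motifs were less frequent. Matches were counted on both strands of the central 200 bp, and 13 of 17 motifs differed, 9 higher and 4 lower. As a like background, each share is set beside that of all 18683 distal called regions, which include the groups compared. The ETS-IRF pattern was found in 12.5% of late closed and 5.53% of late opened windows (odds ratio 2.45, 95% interval 2.09 to 2.87, adjusted p = 1.04e-30, 18 of 22 autosomes), beside 9.31% of all distal called regions. Of the 771 late closed windows with that pattern, 372 (48.2%) held the whole element, which was searched after these results were seen. It matched 6.05% of late closed and 2.17% of late opened windows (odds ratio 2.89, adjusted p = 7.28e-20, 18 of 22 autosomes) and 4.01% of all distal regions, and its odds ratio was 2.82 at 35 to 50% GC. The octamer was found in 4.22% against 1.45% (odds ratio 2.97, adjusted p = 9.76e-15, 19 of 22 autosomes), and in 3.47% of all distal regions. PU.1/SpiB was found in 4.0% against 2.15% (odds ratio 1.89, adjusted p = 1.36e-06, 15 of 22), and in 3.30% of all. The general ETS site ACAGGAAGT was found in 1.42% against 0.349% (odds ratio 3.98, adjusted p = 3.04e-07, 13 of 22), and in 1.03% of all. These 4 differences and those of CTCF and NF-kB also passed among windows of 35 to 50% GC, where 7 motifs passed, the other being MEF2, which did not pass over all windows.

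Other differences from the opened regions did not outlast that restriction on GC. IRF was found in 16.2% against 8.50% of windows (odds ratio 2.08, adjusted p = 2.28e-28, and 14.0% of all distal regions), but its odds ratio was 1.05 at 35 to 50% GC. RUNX (TGTGGTTT, 3.37% against 2.12%), FOX (3.96% against 1.93%) and the site AGATAAG of GATA factors (2.77% against 1.93%) were higher in all windows, with adjusted p of 0.00109, 6.20e-08 and 0.0244, and had odds ratios of 1.12, 1.34 and 1.09 in the restricted windows, with none past the threshold. EBF1 (CCCNNGGGA, 1.84% against 7.0%), the GC box (GGGCGGGG, 0.488% against 6.2%) and the E-box (CAGCTG, 10.8% against 16.7%) were lower, with adjusted p of 5.25e-36, 1.73e-65 and 1.78e-15. In the restricted windows their odds ratios were 0.677, 0.562 and 1.03. In all distal called regions RUNX, FOX, GATA, EBF1, the GC box and the E-box matched 2.93, 3.40, 2.60, 3.92, 2.36 and 13.8% of windows. NF-kB sites were rarer in late closed than in late opened windows, 1.79% against 6.46% (odds ratio 0.264, adjusted p = 1.55e-31, on 22 of 22 autosomes), with 3.68% in all distal regions and an odds ratio of 0.351 in the restricted windows. CTCF was found in 6.66% of late closed and 4.83% of late opened windows (odds ratio 1.4, interval 1.17 to 1.68, adjusted p = 0.000719, 13 of 22 autosomes). That ratio was 3.94 in the restricted windows, 1.15 between genes and 1.09 with no mismatch allowed, and did not pass in those last 2 settings. MEF2, AP-1, CRE (TGACGTCA, 0.114% against 0.268%) and STAT/BCL6 (TTCCNNGAA, 2.34% against 2.33%) did not pass, and CRE and STAT/BCL6 matched 0.145 and 2.45% of all distal regions. Over whole regions, which were wider in the late closed group, all 17 motifs passed.

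Late and early closed regions of VAL showed no motif of 17 past the threshold in Fisher's exact test, and only 1 (FOX, 3.96% against 2.44%, odds ratio 1.61) had an unadjusted p below 0.05. The ETS-IRF share was 12.5% in late and 13.8% in early closed regions (odds ratio 0.893, interval 0.715 to 1.11, adjusted p = 0.577), and the octamer share 4.22% and 3.25% (odds ratio 1.29, interval 0.845 to 1.96, adjusted p = 0.446). For CTCF the shares were 6.66% and 6.36% (odds ratio 1.04, interval 0.763 to 1.42, adjusted p = 0.985).

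Between the VAL-only and OCI-LY3-only late closed regions, 7 of 17 motifs differed, and CTCF and AP-1 did so in opposite directions. Regions called in both lines are in neither group, so these differences concern the remaining regions and not all closing in a line. CTCF, the insulator protein, had a match in 6.66% of the VAL-only late closed windows and 2.98% of the OCI-LY3-only ones (odds ratio 2.30, 95% interval 1.69 to 3.12, adjusted p = 2.77e-08, 16 of 22 autosomes), beside 4.72% of all distal called regions. The difference held with no mismatch allowed (odds ratio 2.32, adjusted p = 0.0275) and at 35 to 50% GC (2.35, adjusted p = 3.25e-05). AP-1 (TGACTCA or TGAGTCA), the site of FOS, JUN and BATF dimers, had a match in 3.79% of the VAL-only and 7.75% of the OCI-LY3-only windows (odds ratio 0.469, interval 0.374 to 0.588, adjusted p = 2.36e-09, 18 of 22 autosomes), beside 4.36% of all distal and 3.66% of all called regions, promoters included. The AP-1 share of the late closed regions differed little from that of the late opened ones, 3.89% (odds ratio 0.973, interval 0.788 to 1.20, adjusted p = 0.985).

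ETS-IRF was also more frequent in the VAL-only than in the OCI-LY3-only windows, 12.5% against 10.0% (odds ratio 1.28, adjusted p = 0.0184, 13 of 22 autosomes), and so was the whole element, 6.05% against 4.32% (odds ratio 1.42, adjusted p = 0.0209), which did not pass at 35 to 50% GC (1.29, adjusted p = 0.313). IRF was lower, 16.2% against 20.4% (odds ratio 0.757, adjusted p = 0.000507, 16 of 22 autosomes), and so were FOX (3.96% against 6.35%, adjusted p = 0.000358), MEF2 (CTAAAAATA, 1.61% against 2.73%, adjusted p = 0.0142, and 2.22% of all distal regions) and the GC box (0.488% against 1.27%, adjusted p = 0.00436). Over whole regions IRF turned to an odds ratio of 1.24, FOX to 1.13 and MEF2 to 1.11, and there the wider VAL-only regions offered more sequence to search. The GC box turned to 1.60 at 35 to 50% GC, without passing. No difference passed for PU.1/SpiB (4.0% against 3.17%, odds ratio 1.26, interval 0.928 to 1.72), the octamer (4.22% against 4.13%, odds ratio 1.02, interval 0.771 to 1.34) or RUNX (3.37% against 3.24%, odds ratio 1.03, interval 0.759 to 1.41).

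**Figure D3:**
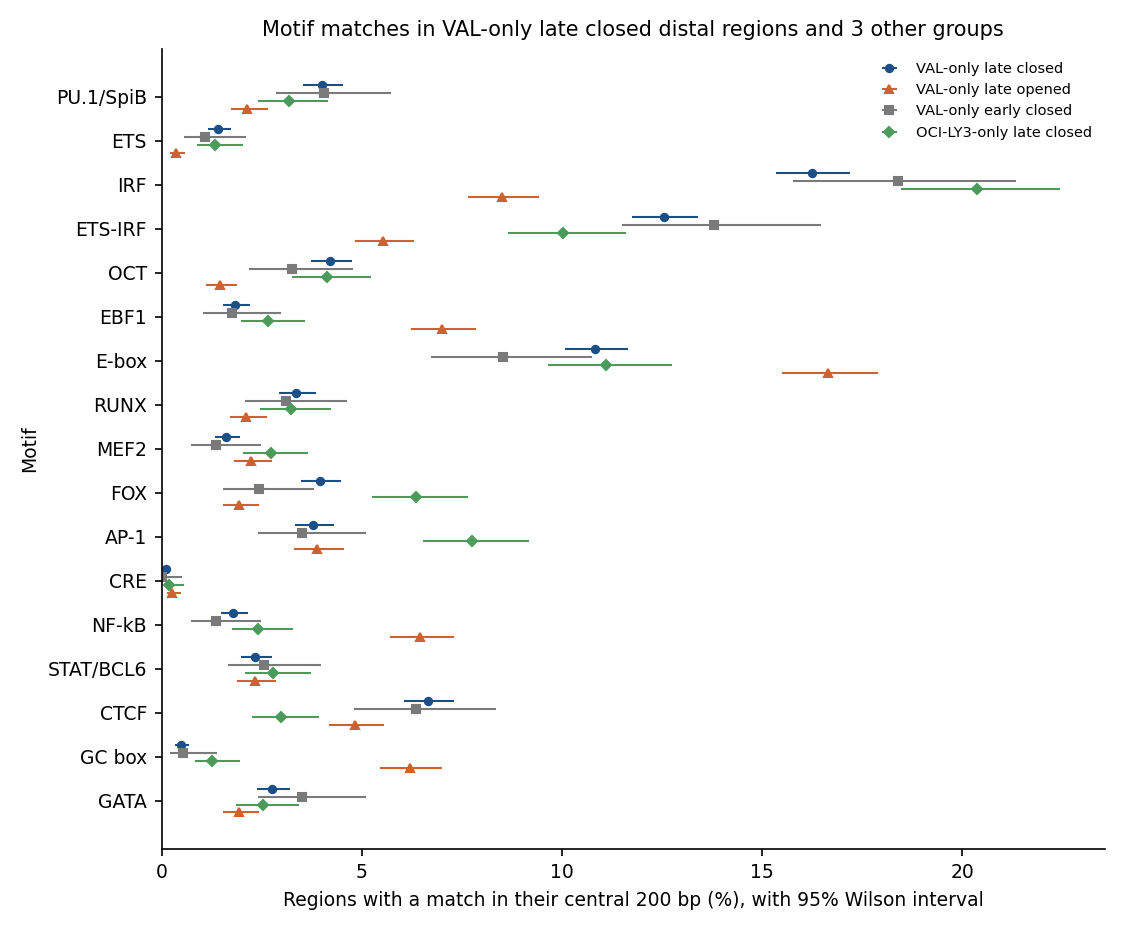
Share of regions (%) with a match to each of 17 motifs in the central 200 bp, with 95% Wilson intervals, for VAL-only late closed, early closed and late opened and for OCI-LY3-only late closed distal regions. The late closed and early closed points lie together, and ETS-IRF stands at 12.5% against 5.53% in the opened group. CTCF and AP-1 part the VAL-only and OCI-LY3-only late closed groups.

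Motif content was alike in gene bodies and between genes. None of the 17 motifs passed the threshold in Fisher's exact test in the central 200 bp, and 0 had an unadjusted p below 0.05. ETS-IRF matched 12.8% of gene-body and 12.1% of intergenic windows (odds ratio 1.07, interval 0.915 to 1.24, adjusted p = 0.644), CTCF 6.43% and 6.98% (odds ratio 0.917, interval 0.749 to 1.12, adjusted p = 0.644) and the octamer 3.89% and 4.68% (odds ratio 0.825, interval 0.643 to 1.06, adjusted p = 0.280).

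The matches were not placed alike along the regions. In 50 bp bins, CTCF was found in 1.83% of late closed regions on average in the pair of bins at the midpoint and in 0.228% in those 400 to 600 bp away, 8.03 times less. The ratio was 9.23 in gene bodies and 6.72 between genes. PU.1/SpiB (1.12% and 0.360%, ratio 3.10), ETS (3.09), the octamer (2.01), RUNX (1.95) and ETS-IRF (1.5, and 2.02 for the whole element) were also more frequent at the midpoint. IRF was flat, with 4.59% at the midpoint and 4.41% in the flanks (ratio 1.04), and so was FOX (1.14). The early closed and OCI-LY3-only regions also had more at the midpoint, with ratios of 2.43 and 2.39 for PU.1/SpiB, 3.00 and 2.78 for ETS and 4.27 and 6.01 for CTCF. In the late opened regions the ratios were 1.31 for PU.1/SpiB, 0.941 for ETS, 3.17 for CTCF and 1.52 each for the octamer and RUNX. AP-1 had a ratio of 1.23 in the VAL-only and 2.00 in the OCI-LY3-only late closed regions. These ratios are descriptions with no test.

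**Figure D4:**
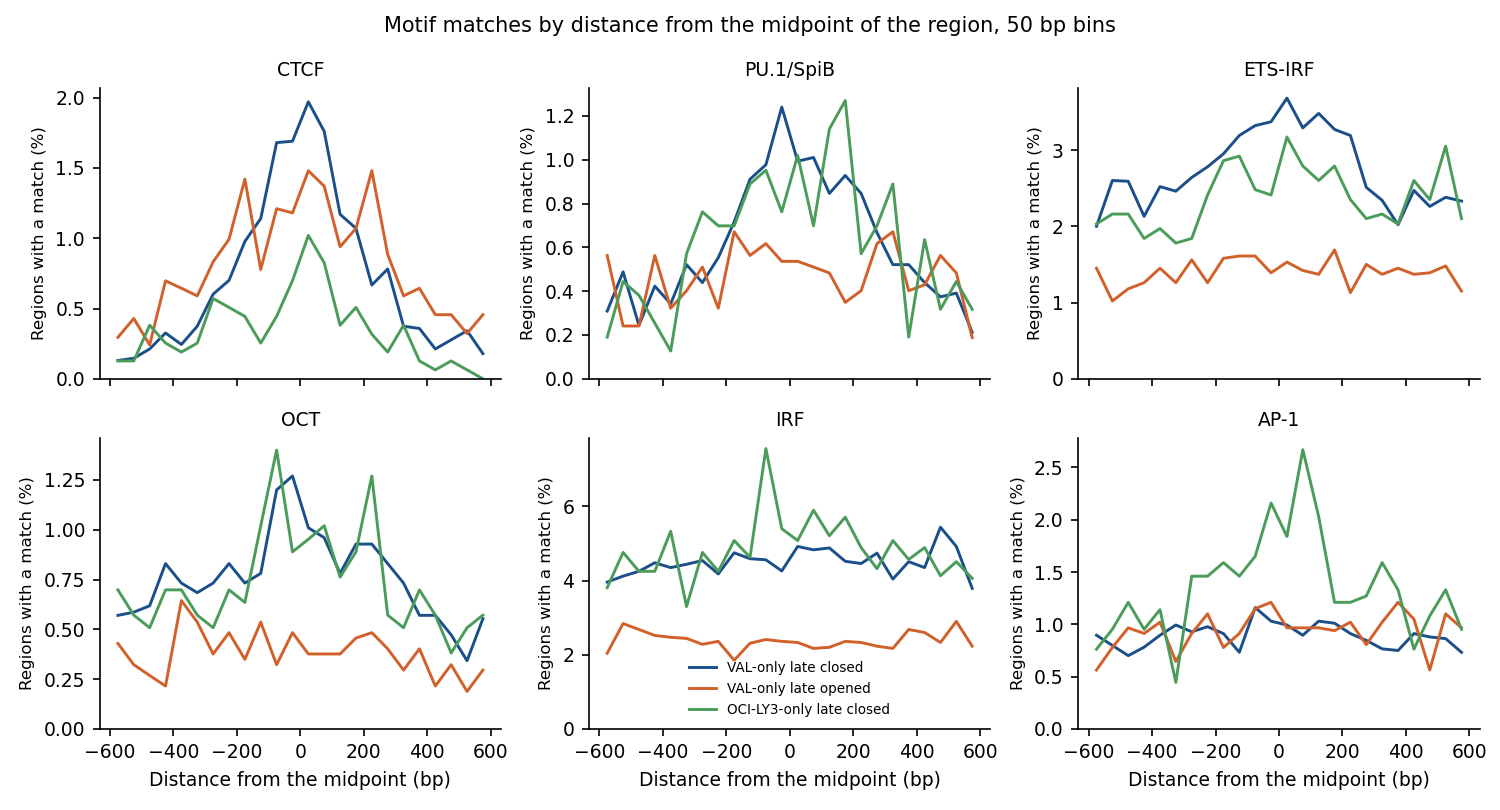
Share of regions (%) with a match in each 50 bp bin, by distance from the midpoint (bp), for 6 motifs in VAL-only late closed, VAL-only late opened and OCI-LY3-only late closed distal regions. CTCF, PU.1/SpiB and the octamer rise towards the midpoint of the VAL-only late closed regions, IRF stays near 4.41%, and AP-1 rises most in the OCI-LY3-only group.

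A wide set of genes shared the gene-body regions. At least 1 region lay in 1549 of 20176 protein-coding genes (7.68%): 1027 genes held 1, 446 held 2 to 4 and 76 held 5 or more. Long genes held most, as their median length of 144 kb against 24.6 kb for all genes shows. Of the genes over 300 kb 50.7% held one, against 23.4% of those of 100 to 300 kb and 1.49% of those of 10 to 30 kb. Density per length rose too, from 0.264 per Mb in genes up to 10 kb to 1.76 at 30 to 100 kb and 2.37 at 100 to 300 kb, and was 2.33 over 300 kb, whereas the late opened regions had 3.62 per Mb in genes up to 10 kb and 0.769 in those over 300 kb. Within the 1549 genes, 36 (2.32%) had a region of the VAL 8 h increased list within 1 kb of a TSS, against 25.1% of all protein-coding genes, and 246 (15.9%) had one of the decreased list there, against 3.38%. Both come from the contrast that chose the regions and are given without a test. Neither comparison with all genes was matched for gene length.

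The 25 genes with the most regions held 216 of them. ANKRD44, an ankyrin-repeat protein of the protein phosphatase 6 complex (chr2:197851386-198175511), held 13 in 324 kb, 4.01 per 100 kb. MARCHF1, the ubiquitin ligase that removes MHC class II and CD86 from the surface of B cells (chr4:164445450-165305202), also held 13, in 860 kb. PTPRD, a receptor tyrosine phosphatase best known in neurons, held 13 in 2300 kb, so its density was 0.566 per 100 kb. ERBB4, a receptor tyrosine kinase, PDE4D, which degrades cyclic AMP, and DLG2, a synaptic scaffold, held 12 each. HDAC9, a histone deacetylase that binds MEF2 factors, and DMD, which encodes dystrophin, held 10 each. The rest held 6 to 8. No opened region lay within 1 kb of a TSS of any of the 25 in VAL at 8 h, and 9 had a closed one there, counts not matched for gene length. The bodies of 12 also held OCI-LY3-only late closed regions, 17 in all. Such regions lay in 2.73% of all protein-coding genes but in 35.9% of the genes over 300 kb that held a late closed region, and the median length of the 25 was 860 kb.

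Density told the compact genes from the long ones. GAB1, a docking protein that recruits PI3K (chr4:144258029-144395718), held 7 regions in 138 kb, 5.08 per 100 kb, all in its first intron and within a stretch of 37.3 kb. Their widths ran from 591 to 2701 bp. TPD52, a vesicle-trafficking protein abundant in B-lineage cells, held 6 in 137 kb (4.39 per 100 kb). HIVEP2 and ARID5B, DNA-binding regulators, held 7 each at 3.59 and 3.58 per 100 kb. KLF12, a Kruppel-like repressor, and SAMD12 held 8 each at 1.78 and 1.85 per 100 kb. The repressor gene TRPS1, the kinase gene STK39, the ubiquitin ligase gene HECW2 and PXDNL held 7 each at 2.69, 2.38, 1.75 and 1.43 per 100 kb. NTM, ASTN2, GALNTL6 and CTNNA2, long genes known mainly from the nervous system or from glycosylation, held 7 each at 0.478 to 0.724 per 100 kb, and CNTNAP2 held 8 at 0.347.

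**Figure D5:**
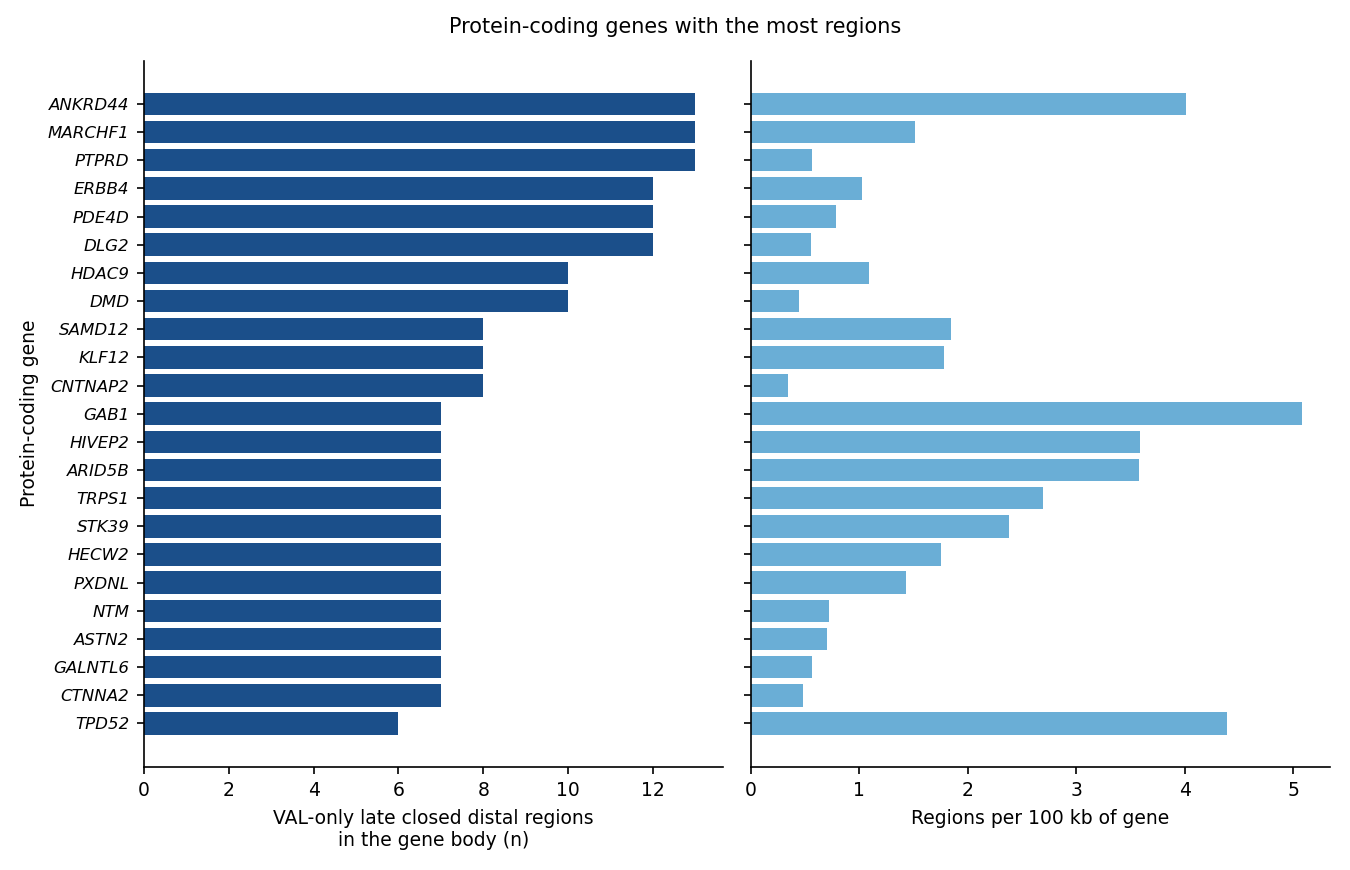
Of the 25 protein-coding genes with the most VAL-only late closed distal regions, the 23 named here, by the number in the gene body (left) and per 100 kb of gene (right). ANKRD44, MARCHF1 and PTPRD lead by number with 13 each, and GAB1 leads by density with 5.08 per 100 kb.

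B-cell regulators were among the genes to which regions were given, either as the gene that holds the midpoint or as the nearest protein-coding TSS. Of all 20176 genes, 2848 (14.1%) were given at least 1. Of 32 B-cell transcription factors, 16 (50%) were given 71 regions, and 9 held 27 in their bodies. That is 5.02 per Mb of gene against 2.04 for all genes (late opened regions 0.744 against 1.62). The OCI-LY3-only late closed regions were also denser in these genes, at 1.3 against 0.483 per Mb. The median length of the 32 genes, 114 kb, was above that of all genes. This assignment had no distance limit. MEF2C, needed for B-cell proliferation, was given 13 regions, 5 of them in its body and the other 8 in non-coding transcripts outside it. The farthest lay at chr5:88737833-88738420, while MEF2C ends at chr5:88200074. TOX was given 9 (5 in its body) and ZEB2 9 (2 in its body). The ZEB2 regions reached chr2:146603645, while that gene ends at chr2:145277965. EBF1, which specifies the B lineage, was given 6 (5 in its body) and ETS1 5 (1 in its body). POU2AF1, the octamer coactivator, was given 5, none in its 27 kb body. The POU2AF1 regions between chr11:111280044 and 111310525 included windows with ETS-IRF, IRF and octamer matches.

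Of 31 B-cell receptor signalling genes, 11 (35.5%, beside 14.1% of all genes) were given 26 regions. Their bodies held 4.43 per Mb, against 2.04 in all genes, and 4.01 late opened ones, against 1.62. The median length of the 31 genes was 108 kb, against 24.6 kb for all genes. A region lay in the body of 25.8% of them, beside 23.4% of all genes of 100 to 300 kb. DAPP1, an adaptor that binds PI3K products, VAV3, ITPR2 and BANK1, a B-cell scaffold, were given 4 each, and RASGRP3 and ITPR1 2 each. DAPP1 was the densest of these at 5.62 per 100 kb. Of 36 surface and migration receptors, 6 (16.7%) were given 19, a share near the 14.1% of all genes. CXCR4, the receptor for the chemokine CXCL12, was given 5 intergenic regions, one of them at chr2:136867298-136868638, 5175 bp from the closest TSS, with a PU.1/SpiB match in its window. CD38, an ectoenzyme of activated and germinal centre B cells, and the egress receptor S1PR1 were given 4 each, the costimulatory CD80 was given 2 and CD83 1.

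Chromatin modifiers mutated in DLBCL were given 55 regions over 8 of 20 genes (40%, beside 14.1% of all genes), and their bodies held 5.22 per Mb against 2.04. Of the 20 regions in those bodies, HDAC9 held 10 and ARID5B 7. The list was also denser in OCI-LY3-only late closed regions (1.04 against 0.483 per Mb) and late opened regions (2.61 against 1.62). The median length of its genes was 141 kb, against 24.6 kb for all genes. TBL1XR1, a subunit of the NCoR corepressor complex, was given 15 and held none, since all lay outside its own transcripts. They ran from chr3:176147507 to 177491724, around a gene at chr3:176737132-176915270. HDAC9 was given 11, ARID5B and ARID1B 8 each, TET2 6 and SMARCA2 5. In the BCL2 family 2 of 17 genes (11.8%) were given 8: BCL2, the anti-apoptotic target of many B-cell lymphomas, 4, and PMAIP1, which encodes the BH3-only protein NOXA, 4. BCL2 also held 10 early closed regions against 3 late closed ones in its body. In the PI3K and AKT list 8 of 23 genes (34.8%) were given 16, among them 3 for INPP4B, 2 each for PIK3CG and PIK3R1 and 1 for PIK3CA. The median length of that list was 86.8 kb, also above the 24.6 kb of all genes. The bodies of that list held 2.61 per Mb, beside 2.04 in all genes, and 4.63 late opened ones.

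Short genes seldom held a region in their bodies, 0.125% of those up to 10 kb and 1.49% of those of 10 to 30 kb. MHC class II genes (15, median length 8.92 kb) were given none, beside 14.1% of all genes. The NF-kB pathway (22 genes, median 26.6 kb) had none in a gene body, beside 7.68% of all genes, and 6 given over 4 genes (18.2%), 2 each to NFKBIZ and TNFAIP3 and 1 each to REL and TRAF1. P-TEFb and elongation factors were given 8 over 4 of 26 genes (15.4%), 4 of them to AFF1, a scaffold of the super elongation complex, 2 to MLLT3 and 1 each to CDK13 and ELL2. Their bodies held 7, which is 4.71 per Mb, beside 8.08 late opened ones. Of 33 Mediator genes 3 (9.09%) were given 5, at MED30 (3), MED12L and MED10, and of 13 CTCF and cohesin genes only RAD21 was given any (2). Lists of other lineages served as a comparison. T-cell genes were given 10 over 5 of 24 (20.8%), led by LEF1 with 5, followed by ICOS with 2 and by ZAP70, CD5 and GATA3 with 1 each. Myeloid genes were given 9 over 4 of 22 (18.2%), 5 of them at CD36, 2 at MSR1 and 1 each at VCAN and LYZ. Neuronal genes were given 97 over 16 of 24 (66.7%), including GRIK2 with 10. They are the longest list, with a median of 1290 kb, and held 2.14 per Mb, close to the 2.04 of all genes.

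Neighbouring regions formed loci in places. Chained at gaps of up to 20 kb, the 6144 regions gave 5186 loci, of which 4453 held 1 region, 733 held 2 or more and 8 held 5 or more. Regions in loci of 2 or more made up 27.5%, against 24.5% of the late opened, 9.61% of the early closed and 4.63% of the OCI-LY3-only regions. The groups differ in size. The locus at HECW2 and STK17B held 8 regions over 86.9 kb (chr2:197047293-197134207), of which 14.5 kb was in regions. GAB1 followed with 7. SPAG16 had 6 intergenic regions in 31.7 kb, EDEM1 had 6 in 81.0 kb, and the loci of POU2AF1 and BTG4, of the antigen-trimming peptidases ERAP1 and ERAP2, and of CD36 had 5 each. Loci of 4 took the last places of the 10 largest, with ties ordered by shortest span, so these were picked for being compact. They were at ST8SIA4, a polysialyltransferase, with 4 intergenic regions in 16.3 kb, and at MEF2C, with 4 intronic ones in 18.1 kb (chr5:88024948-88043081).

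Intergenic regions were also counted in consecutive 100 kb windows fixed along each chromosome, so that a locus crossing a window's edge, such as that of 6 at SPAG16, is split. The fullest windows held 5, beside SLC10A2 and METTL21EP on chromosome 13, CYTIP and ACVR1C on chromosome 2, and CD36 on chromosome 7. CYTIP, a cytohesin-binding regulator of lymphocyte adhesion, had them 9.08 to 73.2 kb from the nearest protein-coding TSS. Windows of 4 were tied, and only part of them were taken. Those taken lay nearest to FMN2, GZMB, which encodes the protease granzyme B, SOCS6, ALKAL2, RSAD2, an interferon-induced antiviral gene, KCNJ3 and SLC39A10. The ST8SIA4 locus, with 4 intergenic regions, lay in a window that was not among them. At KCNJ3 they were 670 to 744 kb from the nearest protein-coding TSS and at SOCS6 355 to 406 kb.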

How the data were processed

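ATAC-seq libraries of VAL and OCI-LY3 cells were processed by the authors, who aligned reads to hg19 with Bowtie2, called peaks per sample with MACS2, merged them, counted reads with bedtools and used DESeq2 to test for differential regions, called at an absolute fold change above 1.5 and an adjusted p limit that differs between the sources used here. How the 2 library protocols entered those tests is not given in the sources used here. They deposited region coordinates only. There were 0 columns of per-sample values, so depth is unknown. Coordinates were joined to the GRCh37 sequence and to GENCODE v44lift37 transcripts tagged basic (119016), in Python (3.11.15) with pysam (0.24.0) and scipy (1.17.1), beside pandas (2.3.3) and numpy (2.4.6). Motifs were searched as fixed letters on both strands, NF-kB and CTCF as degenerate consensus sequences, CTCF with 1 mismatch. Fisher's exact test, two-sided, was applied to counts of regions, with 0.5 added to each cell for odds ratios and 95% Wald intervals and Benjamini-Hochberg adjustment over 83 tests. Neighbouring regions and chromosomes are not independent, so the number of autosomes with the same direction is given. The scripts were tested on simulated data.

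The regions, motifs and gene lists were chosen with earlier results of these data known. Named genes were the 25 protein-coding genes with the most regions and up to 6 of each of 14 gene lists. Those at the 10 largest loci and at 10 of the fullest intergenic windows of 100 kb were added. Ties at 4 regions were cut, so windows as full as some of those named were left out. A region was given to the shortest protein-coding gene holding its midpoint, otherwise to the nearest protein-coding TSS at any distance. Sequences were at most 2 for each motif past the threshold in the highest number of comparisons, at those genes, outside exons and chromosome 8. No GC box match met this rule, and that of TPD52 lay on chromosome 8. Several genes and windows that met these rules are not reported here.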

Additional observations from a re-analysis of the deposited data

Results flagged for a closer look

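The VAL-only and OCI-LY3-only late closed distal regions differed in 10 measures by the tests themselves. The odds ratios of VAL-only over OCI-LY3-only regions were 2.30 for CTCF, 1.28 for ETS-IRF, 0.757 for IRF, 0.58 for MEF2, 0.606 for FOX, 0.469 for AP-1 and 0.378 for the GC box. They were 1.17 for the gene-body share, 1.57 for GC content below 40% and 1.49 for width above 500 bp. CTCF and AP-1 kept their direction and passed under every alternative tried, while IRF, ETS-IRF, MEF2, FOX and the GC box did not.

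Between late and early closed regions of VAL, whose calls share the 0 h libraries, the odds ratios were 0.821 for GC content below 40%, 0.219 for width above 500 bp and 0.656 for lying within 1 kb of a transcript end.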

How the results depend on the processing

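In all, 40 results were recomputed under 17 alternatives, giving 347 tested values, of which 308 kept their direction and their side of the threshold, and 51 counts, of which 44 stayed within 1.5 times the count reported. No paired analysis was possible because the lists hold no value for any library, and for the same reason no library could be left out. Keeping 1 region per locus within 10 kb left GC content below 40%, late against early closed, short of the threshold (odds ratio 0.836). Transcript-end proximity in the same comparison was lost with TSS distance from the midpoint (0.734), protein-coding TSS only (0.798), 5 kb from a TSS (0.641) and 1 region per locus (0.705), and in gene bodies against intergenic regions with protein-coding gene bodies (1.01). Width above 500 bp, gene body against intergenic, turned from 0.974 to 1.03 at 5 kb, 1.09 per locus and 1.13 with protein-coding gene bodies, without passing.

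Motif counts moved most. In windows of 35 to 50% GC, 7 motifs passed against opened and 3 against OCI-LY3-only regions, in place of 13 and 7. Over whole regions 17 and 9 passed, MEF2, AP-1, CRE and STAT/BCL6 against opened regions among them. Among intergenic regions only, 4 passed against OCI-LY3-only. Against early closed regions 2 passed over whole regions and 1 in the central 400 bp, and in gene bodies against intergenic regions 3 and 1, in place of 0. The E-box turned to 1.03 against opened regions and the GC box to 1.60 against OCI-LY3-only regions at 35 to 50% GC. Over whole regions against OCI-LY3-only, IRF turned to 1.24, MEF2 to 1.11 and FOX to 1.13. CTCF against opened regions did not pass with no mismatch (1.09, chosen after its result was seen) or between genes (1.15). Of 237 values for the 20 motif differences named, 207 were unchanged in call, 25 no longer passed and 5 turned. Region calls carry no size of change, so a weak and a strong loss count alike, and absence from a list does not show that a region was stable there.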

Other observations

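Of 409 late closed windows with a CTCF match, 107 (26.2%) also held a match to PU.1/SpiB, ETS, IRF, ETS-IRF, the octamer or RUNX, against 34.2% of all 6144 windows. In gene bodies and between genes the shares of CTCF windows were 24.9 and 27.8%. At least 2 of the 6 motifs stood together in 419 windows (6.82%), in 7.58% of the early closed, 7.11% of the OCI-LY3-only and 2.07% of the late opened ones. IRF and ETS-IRF matches, which share most of their letters, were both present in 171.

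Genes that lost distal accessibility in VAL also held OCI-LY3-only late closed regions, at other coordinates, in part of the cases. Of the 1549 genes with a late closed region, 262 (16.9%) held one, against 2.73% of all protein-coding genes. Gene length moves with both: among genes over 300 kb the share was 35.9% with and 16.4% without a VAL-only region, and among those of 100 to 300 kb it was 15.1% and 5.58%. These shares are descriptions and were not tested.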
